A study of Rattus norvegicus with 20 samples.

Results

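Fos, Fosl1, Jun, Junb, Atf3, Egr1, Klf4, Myc and Ier2 are immediate early genes, most of which code for transcription factors, and their signals were followed array by array in the nasal epithelium of untreated rats. They were chosen by name, and every probe set with 1 of these symbols as its single annotated gene was taken: 12 of the 31042 probe sets tested, for 9 of the 14217 named genes. Fos had 2 such probe sets, Jun had 3 and each other gene had 1. The probe set of highest mean signal stands for its gene below.

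The study measured RNA of olfactory and respiratory nasal epithelium on 20 rat expression arrays, 1 per sample. The rats were adult Sprague-Dawley animals with no genetic modification, no disease and no treatment, aged 11, 13 or 14 weeks and killed by an overdose of ketamine. There were 2 female olfactory, 6 female respiratory, 6 male olfactory and 6 male respiratory arrays. By the numbers in the labels they came from 13 rats, 6 female and 7 male, of which 7 (2 female and 5 male) gave both tissues, against 9 males and 9 females in the series' design text. The tissue was dissected by hand into a preservative, so each sample holds all cell types of the piece taken.

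Immediate early genes are switched on within minutes of a stimulus, without the need for new protein, mostly through kinase cascades that end on transcription factors already bound at their promoters. The serum response factor with its ETS partners, and CREB, which answers to cyclic AMP and calcium, are the best known of these. Fos and Fosl1 code for Fos proteins that pair with Jun and Junb proteins as the AP-1 factor, Atf3 is a related stress-induced factor, Egr1 is a zinc finger factor, and Ier2 is a small nuclear protein. Klf4 and Myc are induced in the same way in many cells, but Klf4 is also a lasting factor of differentiating epithelium and Myc of growing cells. In olfactory tissue, odour exposure and injury are known to induce such genes.

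RefSeq's promoter table of the assembly GRCr8 held 5 of the 9 genes: Junb, Egr1, Klf4, Fosl1 and Ier2. The 4 whose window ends at the annotated gene start are shown because they carry the binding letters of the signals named above. Each is the 250 bases before the start, 5′ to 3′ on the strand of the gene, and capitals mark serum response elements, the cyclic AMP response element TGACGTCA and its core TGACG, read on either strand (CGTCA on the other). Egr1 lies at chr18:26736828-26737077, Ier2 at chr19:40399123-40399372, Junb at chr19:40080876-40081125 and Fosl1 at chr1:212183635-212183884, all on the plus strand.
Egr1: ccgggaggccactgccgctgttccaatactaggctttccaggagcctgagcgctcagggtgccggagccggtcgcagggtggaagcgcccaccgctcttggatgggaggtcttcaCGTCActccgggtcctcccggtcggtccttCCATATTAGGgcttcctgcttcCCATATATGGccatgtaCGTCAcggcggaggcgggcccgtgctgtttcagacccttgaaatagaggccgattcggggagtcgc
Ier2: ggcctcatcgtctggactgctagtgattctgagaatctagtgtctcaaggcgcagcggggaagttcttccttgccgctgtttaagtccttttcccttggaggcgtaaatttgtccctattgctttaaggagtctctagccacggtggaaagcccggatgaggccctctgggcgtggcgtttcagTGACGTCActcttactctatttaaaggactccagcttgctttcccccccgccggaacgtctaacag
Junb: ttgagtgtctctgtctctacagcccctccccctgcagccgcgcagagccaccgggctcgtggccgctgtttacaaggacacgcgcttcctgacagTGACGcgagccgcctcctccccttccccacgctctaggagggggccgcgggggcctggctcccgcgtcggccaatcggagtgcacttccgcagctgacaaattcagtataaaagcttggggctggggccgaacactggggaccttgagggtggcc
Fosl1: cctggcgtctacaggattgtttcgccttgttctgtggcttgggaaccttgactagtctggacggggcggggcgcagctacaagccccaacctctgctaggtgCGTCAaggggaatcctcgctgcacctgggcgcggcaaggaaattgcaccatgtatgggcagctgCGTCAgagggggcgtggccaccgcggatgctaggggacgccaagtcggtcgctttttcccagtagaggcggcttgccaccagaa

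Egr1 held 2 serum response elements, whose first bases lie at -105 and -83 from the start, with the core TGACG on the other strand at -135 and -66. Ier2 held the whole cyclic AMP response element at -66, Junb the core at -155, and Fosl1 the core on the other strand at -148 and -84. Over the 33469 RefSeq promoters of 300 bases (250 before the start and 50 from it on), 1.64% held a serum response element, 1.83% the element TGACGTCA and 21.2% the core TGACG on either strand. The AP-1 site TGANTCA was in 7.33% of them and in 0 of the 5 windows. Junb also held the TATA box TATAAA at -49, which 14.2% of promoters hold on either strand. The Klf4 window starts inside the annotated gene and is not shown. A match describes these letters and does not show that a factor binds there.

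Klf4, Myc and Junb were lower in olfactory than in respiratory epithelium in both sexes, Atf3 and Fosl1 were called lower in males, and Fos, Jun, Egr1 and Ier2 passed in neither sex. In males 5 of 9 genes were lower in 6 olfactory than in 6 respiratory arrays and 0 were higher, at an adjusted p under 0.05 in limma over all 31042 probe sets. Of all named genes 17.8% were called lower and 14% higher in that comparison. The median change of the 9 genes was -1.18 on the log2 scale, against -0.05 over all named genes. In females 3 of 9 genes were lower in 2 olfactory than in 6 respiratory arrays and 0 higher, against 11.6% of named genes called lower and 10.9% higher. There the median was -1.13, against -0.03 over all named genes. All changes below are olfactory minus respiratory on the scale log2(signal + 16), with the standard error (SE) of limma's fit.

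**Figure D1:**
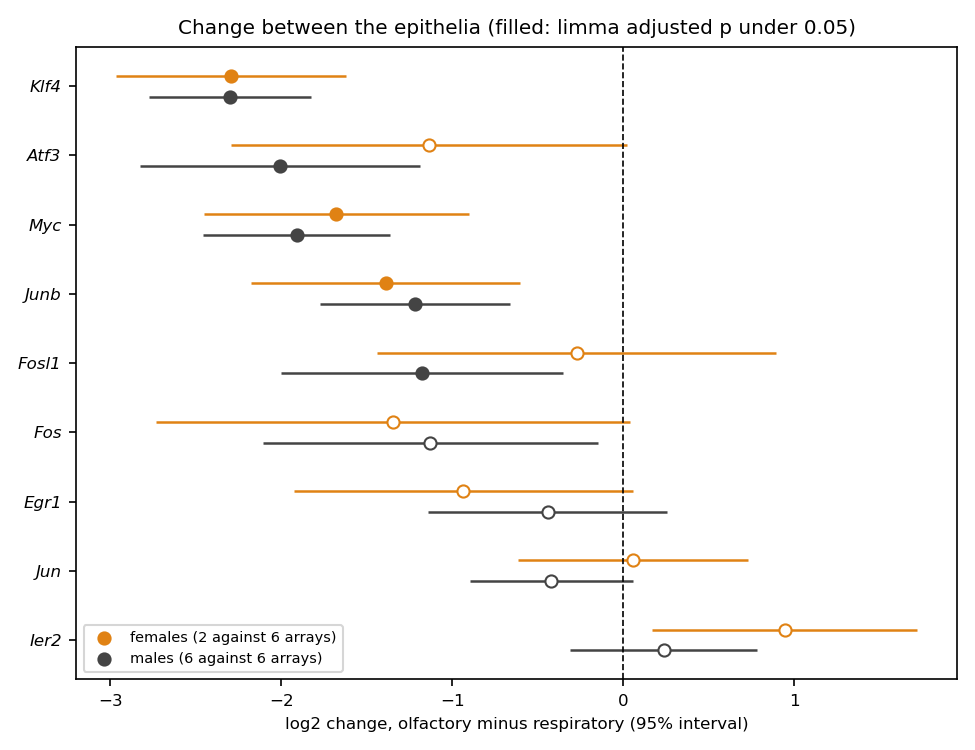
Change in signal between olfactory and respiratory epithelium (x axis, log2, with 95% intervals) for each gene (y axis), in females (orange, 2 against 6 arrays) and in males (grey, 6 against 6 arrays); filled points passed limma's adjusted p of 0.05. Klf4, Myc and Junb lie left of 0 with filled points in both sexes, and Ier2 in males lies at 0.24.

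Cell makeup moved with the tissue, and its part in these changes was not tested. The mature olfactory neuron markers summed to 63922 to 73479 in male olfactory arrays against 2394 to 12048 in male respiratory arrays, with all 7 measured markers higher, so olfactory RNA was present in respiratory samples too. Of 8 leukocyte markers 7 were lower in male olfactory epithelium, with sums of 2553 to 5158 against 10143 to 17362. Of 5 markers of basal cells, the stem cells of the epithelium, 4 were lower, with sums of 3018 to 10864 in male olfactory against 20153 to 66271 in male respiratory arrays. Markers of squamous cells (5 of 7), connective tissue (5 of 6) and endothelium (3 of 5) were lower as well, and 0 of 6 muscle markers were called. No marker of these lists was at background on all 20 arrays. The RNA integrity number, a score of how intact the RNA is, averaged 8.30 in female olfactory samples (n = 2) against 8.98 ± 0.26 in female respiratory samples (SD, n = 6). It averaged 8.54 ± 0.26 in male olfactory (SD, n = 5) against 9.20 ± 0.08 in male respiratory samples (n = 4). Within each sex these numbers did not overlap between the tissues. With this number as a covariate, over the arrays whose labels give it, 2 of 9 genes passed as lower in males and 2 in females, Klf4 and Myc in each. Over the same arrays without the covariate there were 5 and 3. Of all 31042 probe sets, 1062 were called lower in males with the covariate, against 4033 without it. In females 552 were called lower with it, against 3688 without it. The calls that ended with it were those of Junb (-1.58, SE 0.51, adjusted p 0.0671 in males, and -1.74, adjusted p 0.0992 in females), Atf3 (-1.14, SE 0.68, adjusted p 0.371 in males) and Fosl1 (-0.40, SE 0.72, adjusted p 0.825 in males). Over the same arrays without it, the male changes were -1.25 for Junb (SE 0.32), -1.79 for Atf3 (SE 0.43) and -1.40 for Fosl1 (SE 0.48). The estimates thus moved as well as their SEs, and the part of RNA integrity was not tested. In whole pieces of tissue, fewer cells that hold an RNA and less of it per cell cannot be told apart. Female respiratory 8 and male respiratory 7 stood apart from the other respiratory arrays on the second principal component of all probe sets (15.8% of the variance), at -113.3 and -97.5, and results that they change are given without them.

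Klf4, a zinc finger factor known for its role in the differentiation and barrier of epithelia, had the largest difference of the 9 genes in both sexes. Its signal had a lowest value of 200, a median of 290 and a highest of 391 in the 6 male olfactory arrays, against 878, 1368 and 2429 in the 6 male respiratory arrays. The female olfactory arrays had 183 and 427, against 1282, 1377 and 1694 as lowest, median and highest in female respiratory arrays. In neither sex did the tissues overlap. In limma Klf4 was 4.93-fold lower in males (log2 change -2.30, SE 0.23, adjusted p 1.06e-07) and 4.90-fold lower in females (-2.29, SE 0.32, adjusted p 4.06e-05). Its mean log2 signals were 8.21 and 8.20 in female and male olfactory epithelium and 10.51 and 10.50 in female and male respiratory epithelium, so that the groups of 1 tissue lay side by side and the tissues apart. Of 34 other settings tried in males, all 34 kept the call, and so did all 32 in females.

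Myc, the growth factor-induced regulator of growth and metabolism genes, was likewise separated by tissue. It had a lowest signal of 45.1, a median of 77.4 and a highest of 99 in male olfactory arrays, of which 5 of 6 lay above the array background, against 235, 296 and 506 in male respiratory arrays. The female olfactory arrays had 58.8 and 67.0, against 152, 243 and 364 in female respiratory arrays. The tissues did not overlap in either sex. Myc was 3.76-fold lower in males (log2 change -1.91, SE 0.26, adjusted p 8.01e-06) and 3.20-fold lower in females (-1.68, SE 0.37, adjusted p 0.0031), where the call was lost without female olfactory 6 (adjusted p 0.0605). Among named genes 10.2% were lower without any overlap of the tissues in males, where Klf4 and Myc were the 2 members to do so. In females 18% were, and 5 members did so (Klf4, Myc, Junb, Egr1 and Atf3), a number that 2 olfactory arrays make easy to reach.

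**Figure D2:**
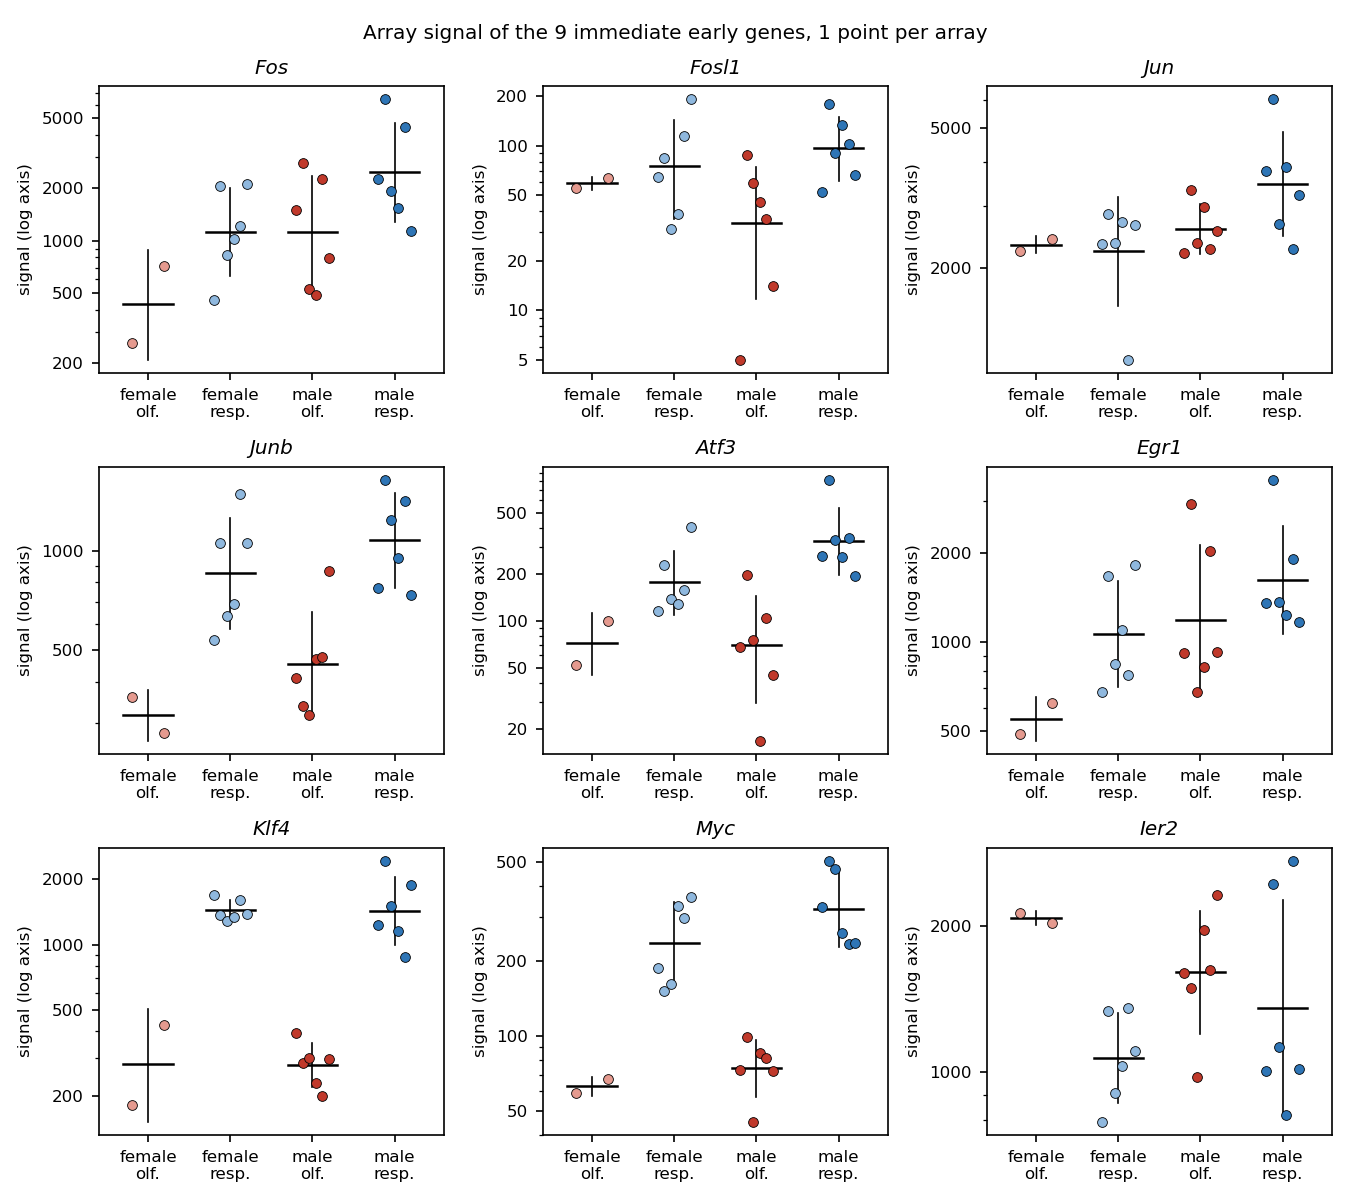
Signal of each gene (y axis, log scale, array signal units) on every array, by sex and tissue, with 1 point per array, a bar at the mean of the log2 values and a line of 1 SD either way. Klf4 and Myc separate the tissues in both sexes, while the Fos arrays of each group spread over a wide range and overlap between tissues.

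Of the Jun proteins, Junb differed between the tissues and Jun did not pass. Junb, often a restraint on Jun activity and on growth, had 317, 440 and 870 as lowest, median and highest signal in male olfactory arrays, against 734, 1094 and 1638 in male respiratory arrays. The female olfactory arrays had 278 and 359, against 534, 871 and 1489 in female respiratory arrays. In males only the olfactory array of male 10 reached into the respiratory range, and in females there was no overlap. Junb was 2.33-fold lower in males (log2 change -1.22, SE 0.27, adjusted p 0.00145) and 2.62-fold lower in females (-1.39, SE 0.38, adjusted p 0.0131). The female call rests on both olfactory arrays: without female olfactory 8 the adjusted p was 0.141, and without female olfactory 6 it was 0.0731.

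Jun, the main AP-1 partner of Fos, had 2212, 2446 and 3336 in male olfactory arrays, against 2261, 3501 and 6043 in male respiratory arrays. The female olfactory arrays had 2234 and 2419, against 1094, 2500 and 2850 in female respiratory arrays. The tissues overlapped in both sexes. The changes were -0.42 in males (SE 0.23, adjusted p 0.202) and 0.06 in females (SE 0.33, adjusted p 0.927, 95% interval -0.62 to 0.73). The lowest respiratory values came from the arrays that stood apart, and without female respiratory 8 and male respiratory 7, a comparison chosen after seeing the data, the male change of Jun was -0.54 (SE 0.17, adjusted p 0.0175). Its other 2 probe sets differed by -0.34 and -0.05 in males (adjusted p 0.430 and 0.902).

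Atf3, a repressor and activator of the ATF family that rises with stress, was lower in male olfactory epithelium. It had 16.8, 71.5 and 198 as lowest, median and highest signal in male olfactory arrays, of which 4 of 6 lay above background, against 193, 299 and 810 in male respiratory arrays. Only male olfactory 2, the highest of its group, reached the lowest respiratory array. Atf3 was 4.01-fold lower in males (log2 change -2.0, SE 0.40, adjusted p 0.000491). In females the arrays had 51.6 and 99.6 in olfactory against 117, 148 and 406 in respiratory epithelium, without overlap, and the change of -1.13 did not pass (SE 0.56, adjusted p 0.171, 95% interval -2.29 to 0.02). The difference between the sexes in this change was 0.87 (SE 0.68) and did not pass either (adjusted p 0.927).

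Of the Fos proteins, Fosl1 passed in males and Fos did not over all 20 arrays. Fosl1, a Fos protein without the strong activation domain of Fos, lay near the limit of detection: 2 of 6 male olfactory and 6 of 6 male respiratory arrays were above background, and 2 of 2 female olfactory and 4 of 6 female respiratory arrays. It had 5.0, 40.8 and 87.7 in male olfactory arrays, against 52.6, 96.7 and 181 in male respiratory arrays. The change was -1.18 (SE 0.40, adjusted p 0.0326), a call that was lost without male olfactory 1 (adjusted p 0.0930), male olfactory 10 (0.0765), male respiratory 2 (0.0853) or male respiratory 4 (0.0705). In females it had 55.6 and 63.4 in olfactory arrays against 31.1, 74.4 and 192 in respiratory arrays, and the change was -0.27 (SE 0.56, adjusted p 0.795, 95% interval -1.44 to 0.90).

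Fos, the founding member of the family and a common mark of recent cell activity, had the widest spread within groups. Its signal had a lowest value of 490, a median of 1140 and a highest of 2765 in male olfactory arrays, against 1138, 2088 and 6451 in male respiratory arrays. The female olfactory arrays had 258 and 719, against 455, 1114 and 2113 in female respiratory arrays. The tissues overlapped in both sexes, and the changes of -1.13 in males (SE 0.47, adjusted p 0.0876) and -1.35 in females (SE 0.67, adjusted p 0.175) did not pass. When the 5 males with both tissues were paired, by a fixed replicate block for the animal, the change of Fos was -1.25 (SE 0.19) and passed in limma (adjusted p 0.000626). It also passed without male olfactory 2 (-1.39, adjusted p 0.0352). The other Fos probe set lay above background on 4 of 20 arrays and differed by 0.04 in males (adjusted p 0.953).

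Egr1, a zinc finger factor that follows growth factor and neuronal signals, had 681, 921 and 2930 in male olfactory arrays, against 1169, 1366 and 3527 in male respiratory arrays. The female olfactory arrays had 488 and 623, against 682, 970 and 1820 in female respiratory arrays. Males overlapped and females did not. The changes of -0.44 in males (SE 0.34, adjusted p 0.387) and -0.94 in females (SE 0.48, adjusted p 0.188) did not pass.

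Ier2, a nuclear protein induced early by growth factors, had higher means in olfactory epithelium in both sexes, with no call. It had 976, 1610 and 2307 in male olfactory arrays, against 819, 1073 and 2712 in male respiratory arrays, with full overlap, and its change was 0.24 (SE 0.26, adjusted p 0.574). In females the olfactory arrays had 2023 and 2120, above all 6 respiratory arrays at 791, 1070 and 1353 as lowest, median and highest, but the change of 0.94 did not pass (SE 0.37, adjusted p 0.0837). It passed without female respiratory 8 and male respiratory 7 (1.01, adjusted p 0.0255), a comparison chosen after seeing the data, and without male respiratory 7 alone (0.94, adjusted p 0.0444). Of named genes 18.8% were higher in female olfactory epithelium without overlap.

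Within the 7 rats that gave both tissues, most of these genes were lower in the olfactory sample. Fos was lower in the olfactory sample in 7 of 7 rats, as were Junb, Atf3, Klf4 and Myc. Jun, Egr1 and Fosl1 were lower in 6 of 7, and Ier2 in 3 of 7. The share of all named genes lower in 7 of 7 rats was not counted. Male 2 had a Fos signal of 2765 in olfactory against 6451 in respiratory epithelium, and male 7 had 2245 against 4441. Male 1 had 1490 against 2245, male 3 had 525 against 1931 and male 4 had 490 against 1536. Female 8 had 719 against 1215 and female 6 had 258 against 824. The within-rat log2 differences of Fos thus ran from -1.85 to -0.59, although its olfactory signal in male 2 was above the respiratory signal of 5 of these rats. For Klf4 they ran from -3.03 to -1.61, for Myc from -2.99 to -1.25, for Atf3 from -3.06 to -0.58 and for Junb from -2.35 to -0.79.

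The spread between rats was a feature of some of these genes and not of others. The SD of log2 signal within groups was 0.95 for Fos, larger than in 97.2% of the probe sets above background on at least 12 arrays. It was 0.74 for Atf3, 0.73 for Fosl1 and 0.66 for Egr1, larger than in 87.8%, 86.7% and 79.8% of them, with 2 arrays of Atf3 and 6 of Fosl1 at or under background. Klf4, Jun and Myc had SDs of 0.41, 0.42 and 0.43, under the median of 0.47 over those probe sets, and the median of the 9 genes was 0.50. Within the male olfactory group Fos and Egr1 had their lowest and highest signals at 490 and 2765 and at 681 and 2930.

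Some rats were high or low in several genes at once. Male 2 had the highest signal of the male respiratory group in 8 of 9 genes, all but Ier2, and the highest of the male olfactory group in 6 (Fos, Jun, Egr1, Atf3, Myc and Fosl1). The share of all genes in which male 2, or any other rat named here, was highest or lowest was not counted. Male olfactory 2 was also the highest array on the second principal component of all probe sets, at 84.4. Male olfactory 3 was next at 72.3, and male respiratory 2 lay at 2.3. In the female respiratory group, female 9 was highest in 5 genes (Fos, Egr1, Atf3, Myc and Fosl1) and female 3 was lowest in 5. Across the respiratory arrays Fos moved with Egr1 and Atf3 (r 0.93 and 0.91), so these genes are not separate counts. Male 8 was lowest in 4 genes of the male respiratory group, and male 3 in 4 of the male olfactory group. Averaged over the 9 genes, arrays deviated from their group mean by 0.58 log2 in the olfactory and 0.91 in the respiratory array of male 2, by 0.57 in female respiratory 9 and by -0.42 in male respiratory 8. The highest signals of male 2 were in genes with a large spread (Fos, Atf3) and in genes with a small one (Klf4, Jun). Without both arrays of male 2, a comparison chosen after seeing the data, the 5 male calls stayed, with Junb at -1.02 (adjusted p 0.0147).

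**Figure D3:**
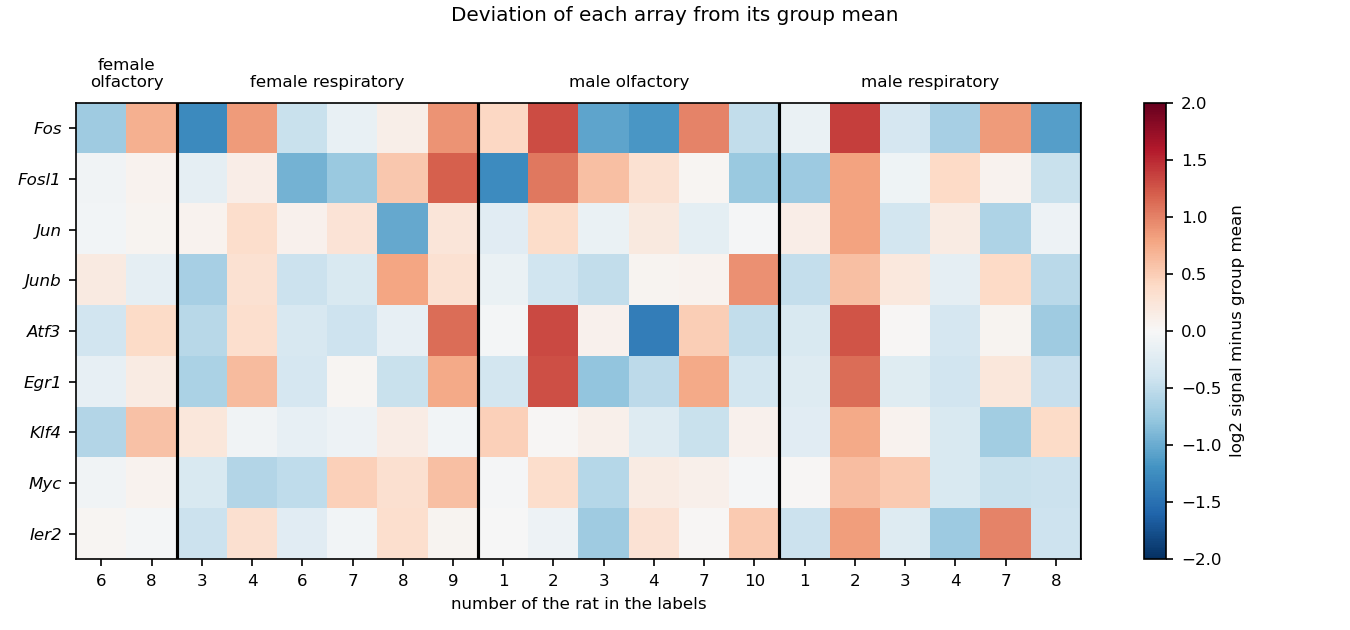
Deviation of each array (columns, by group and rat number) from its group mean (colour, log2 signal) for each gene (rows). Male 2 is red in most genes in both tissues, at mean deviations of 0.58 and 0.91, and the female olfactory columns can only mirror each other since there are 2.

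Across the 12 respiratory arrays, each from another rat, Fos moved with Egr1, Atf3, Ier2 and Junb. The family held 8 relations of log2 signals, with 2-sided permutation p values over 100000 resamples, adjusted by Benjamini-Hochberg over the 8. For Egr1, Pearson's r was 0.93 and Spearman's rho 0.92 (adjusted permutation p 0.00012 and 0.00024), and r was 0.84 without the 2 arrays farthest from the median of Fos. For Atf3, r was 0.91 and rho 0.92 (adjusted permutation p 0.00012 and 0.00024), with r 0.82 without those 2 arrays. Ier2 had r 0.83 and rho 0.66 (adjusted permutation p 0.00264 and 0.0444; r 0.73 without the 2), and Junb had r 0.80 and rho 0.76 (0.00364 and 0.0148; r 0.61 without the 2). Within the 6 females r was 0.89 for Egr1, 0.84 for Atf3, 0.81 for Ier2 and 0.74 for Junb, with exact permutation p values of 0.0222, 0.0292, 0.0528 and 0.0903. Within the 6 males r was 0.94, 0.88, 0.90 and 0.84 in the same order of genes, with exact permutation p values of 0.00278, 0.00694, 0.0306 and 0.0403.

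The other genes had no relation with Fos that passed. Fosl1 had r 0.60 and rho 0.59 (adjusted permutation p 0.0617 and 0.0739), Myc r 0.51 and rho 0.43 (0.118 and 0.224), and Jun r 0.47 and rho 0.34 (0.140 and 0.317). Klf4 had r -0.02 and rho -0.15 (adjusted permutation p 0.948 and 0.649), and without the 2 arrays farthest from the median of Fos its r was -0.62. Without male respiratory 2 alone, r was 0.89 for Egr1, 0.86 for Atf3, 0.75 for Ier2 and 0.73 for Junb, and -0.67 for Klf4 (permutation p 0.0265, unadjusted). Without female respiratory 8 and male respiratory 7, r was 0.97 for Egr1 and 0.79 for Jun (permutation p 0.00711, unadjusted), and for Klf4 it was 0.35. These comparisons were chosen after seeing the data, and the sign for Klf4 turned with the arrays left out.

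**Figure D4:**
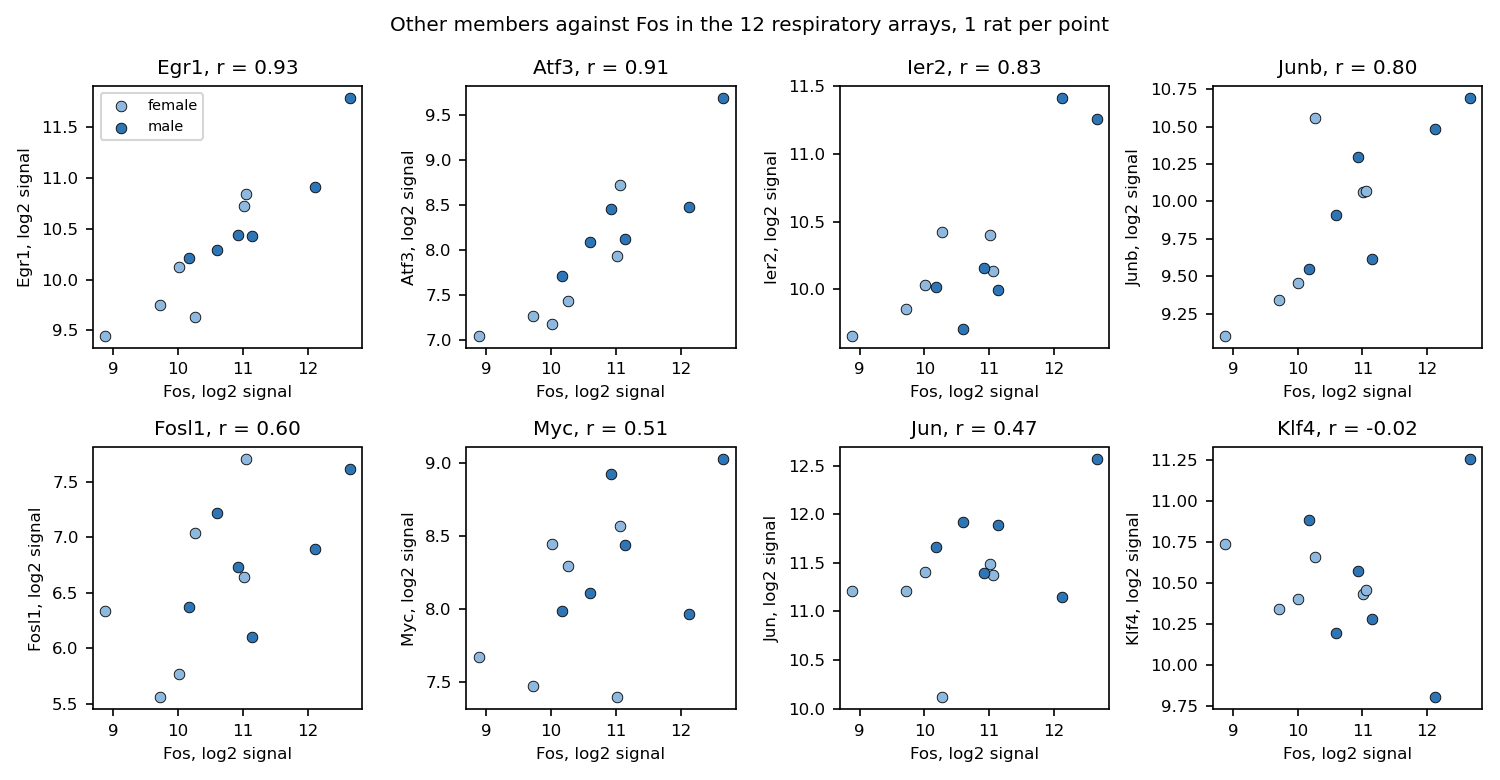
Log2 signal of each other gene (y axis) against that of Fos (x axis) on the 12 respiratory arrays, with 1 point per rat, females in light blue and males in dark blue. Egr1 and Atf3 follow Fos along the whole range (r 0.93 and 0.91), while Klf4 does not (r -0.02).

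Over the same 12 arrays, none of 5 measures of the samples themselves had a relation with Fos that passed after adjustment. The olfactory neuron markers had r -0.60 and rho -0.54 (permutation p 0.0377 and 0.0753, adjusted 0.188 and 0.255), and r -0.40 without the 2 arrays farthest from the median of Fos. Within females r was -0.73 and within males -0.12 (exact permutation p 0.0944 and 0.843). The RNA integrity number had r 0.35 and rho 0.44 over the 10 arrays that give it (adjusted permutation p 0.419 and 0.255). It had r 0.73 without the 2 of these arrays farthest from the median of Fos. Age in weeks had r -0.05, the array median -0.33 and the erythrocyte markers 0.30, with adjusted permutation p values of 0.875, 0.419 and 0.419. Within the 6 females, however, r with age was 0.79 and rho 0.77 (exact permutation p 0.0333, unadjusted), against r -0.29 within the 6 males (exact permutation p 0.50).

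Between the sexes 0 of 9 genes passed in limma in either tissue, and all adjusted p values were 0.944 or more. Of named genes 0.0141% were called in respiratory and 0.0211% in olfactory epithelium. In respiratory epithelium 8 of 9 genes had lower means in females than in males, with a median change of -0.43 against -0.04 over all named genes. Male respiratory 2 was the highest male array in 8 of the 9, and its part in this was not tested. Fos and Atf3 also moved together across the respiratory arrays (r 0.91), so their sex changes are not separate evidence. At an unadjusted p under 0.05 there were 3 of 9: Fos (-1.11, SE 0.47, p 0.0278 in limma), Atf3 (-0.82, SE 0.40, p 0.0487) and Jun (-0.63, SE 0.23, p 0.0119), all female minus male and against 3.57% of named genes. The other Jun probe sets changed by -0.34 and -0.45 (unadjusted p 0.127 and 0.121 in limma). Female respiratory 8 had a Jun signal of 1094, against 2346 to 2850 on the other female respiratory arrays, and its part was not tested. The Fos arrays overlapped, at 455 to 2113 in female and 1138 to 6451 in male respiratory epithelium. In olfactory epithelium there was 1, Egr1, at 488 and 623 in females against 681 to 2930 in males (-1.09, SE 0.48, unadjusted p 0.0329), against 3.91% of named genes. Klf4 differed by 0.01 between the sexes in each tissue, with 95% intervals of -0.47 to 0.48 in respiratory and -0.66 to 0.69 in olfactory epithelium. The change between tissues differed between the sexes in 0 of 9 genes by limma's interaction term (0 at an unadjusted p under 0.05, against 3.82% of named genes).

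The genes whose pattern was most like that of the 9 were found by their correlation with the mean deviation of the 9 from the group means, over 20 arrays and 12126 genes above background on at least 12 arrays. The 10 highest were Chst5 (r 0.82), a sulfotransferase, Ccnd2 (0.78), a cyclin, Ap2a2 (0.78), a subunit of the endocytic adaptor, Errfi1 (0.74), an inhibitor of the EGF receptor, and Adamts1 (0.73), a secreted protease. Then came the nuclear receptor gene Nr4a1 (0.72), the BMP antagonist gene Nog (0.72), the RNA helicase gene Mov10 (0.71), the small GTPase gene Gem (0.70) and Tnfaip2 (0.70). Among the 9 themselves the correlation with their own mean was 0.91 for Egr1, 0.89 for Fos and 0.88 for Atf3, and 0.25 for Klf4, which describes which genes the mean follows. Chst5 had 138 to 246 in male olfactory against 358 to 1272 in male respiratory arrays, and Nr4a1 had 448 to 1051 against 572 to 1815.

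Around the 9 genes, the lists of their pathway had more genes lower than higher in male olfactory epithelium, as had the genes outside the lists. Of 31 other immediate early genes 9 were lower and 1 higher (median -0.39), against 17.8% and 14% of all named genes. The 3 with the largest change were Plaur, the urokinase receptor (-2.67, SE 0.60), Phlda1 (-2.40, SE 0.39) and Ptgs2, the inducible cyclooxygenase (-2.31, SE 0.60), with adjusted p values in limma of 0.00181, 5.71e-05 and 0.00602. Plaur lay above background on 1 of 6 male olfactory arrays, against 6 of 6 male respiratory arrays, so the size of its change is set mostly by values at background. Of 18 AP-1 and ATF partners 5 were lower and 2 higher (median -0.11). Atf5, a factor of olfactory neuron development, was higher (2.88, SE 0.30, adjusted p 1.93e-07), Ddit3, the stress factor CHOP, was higher (1.84, SE 0.32), and Batf, an AP-1 partner of lymphocytes, was lower (-2.63, SE 0.35), with 2 of 6 male olfactory arrays above background. The leukocyte markers of the same arrays were lower too, as given above, and their part was not tested.

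Of 15 genes of the EGR and KLF families 4 were lower and 1 higher (median -0.07): Klf5 (-2.07, SE 0.18), a factor of proliferating epithelium, Klf6 (-1.53, SE 0.38) and Klf9 (-1.26, SE 0.36) had the largest changes. Klf5 had the second largest change of the Klf genes after Klf4. Of 15 genes of the MYC network 4 were lower and 1 higher (median -0.17). Mycn, the Myc paralogue of neural progenitors, was the higher one (1.25, SE 0.36, with 2 of 6 male respiratory arrays above background), and Mycl (-0.93, SE 0.23) and Mxd1, a repressor that takes the partner of Myc (-0.91, SE 0.19), were lower. Myc and Mycn thus changed in opposite directions in males.

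Upstream, 8 of 22 genes of the signal chains were lower and 2 higher (median -0.14), against 17.8% and 14% of all named genes. Areg, a ligand of the EGF receptor, was above background on 0 of 6 male olfactory and 3 of 6 male respiratory arrays. Its fitted change was -1.72 (SE 0.46, adjusted p 0.00792 in limma), a size that rests on values mostly at background. In females the change of Areg was -0.45 and did not pass (adjusted p 0.698 in limma). Elk3, an ETS partner of the serum response factor, was lower (-1.59, SE 0.21), while Prkaca, the catalytic subunit of the kinase that cyclic AMP switches on, was higher (1.65, SE 0.22). Of 21 feedback inhibitors 7 were lower and 1 higher (median -0.51), with Zfp36l2, which destabilises short-lived messages (-1.80, SE 0.19), the phosphatase gene Dusp2 (-1.61, SE 0.41) and Tnfaip3, which damps NF-kB signalling (-1.56, SE 0.25). Of 22 known targets of AP-1, EGR1 and MYC 10 were lower and 0 higher (median -0.68), beside the same 17.8% and 14% of all named genes. In females 5 of the 22 were lower and 0 higher, against 11.6% and 10.9% of all named genes. The proteases Mmp3 (-5.27, SE 0.92) and Plau (-3.40, SE 0.34) and the chemokine gene Cxcl1 (-2.74, SE 0.74) had the largest fitted changes in males. But Mmp3 and Cxcl1 were each above background on 2 of 6 male olfactory arrays, so their sizes and order rest on values mostly at background. In females Plau passed (adjusted p 7.34e-05 in limma), while Mmp3 and Cxcl1 did not (0.0558 and 0.664).

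The list of heat shock and the unfolded protein response, which other forms of stress induce, was split, with 6 of 16 genes lower and 2 higher (median -0.23). Trib3 (1.85, SE 0.35) and Ppp1r15a (1.2, SE 0.18) were higher in male olfactory epithelium. The heat shock gene Hspa1a was lower (-1.02, SE 0.27, adjusted p 0.00727).

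**Figure D5:**
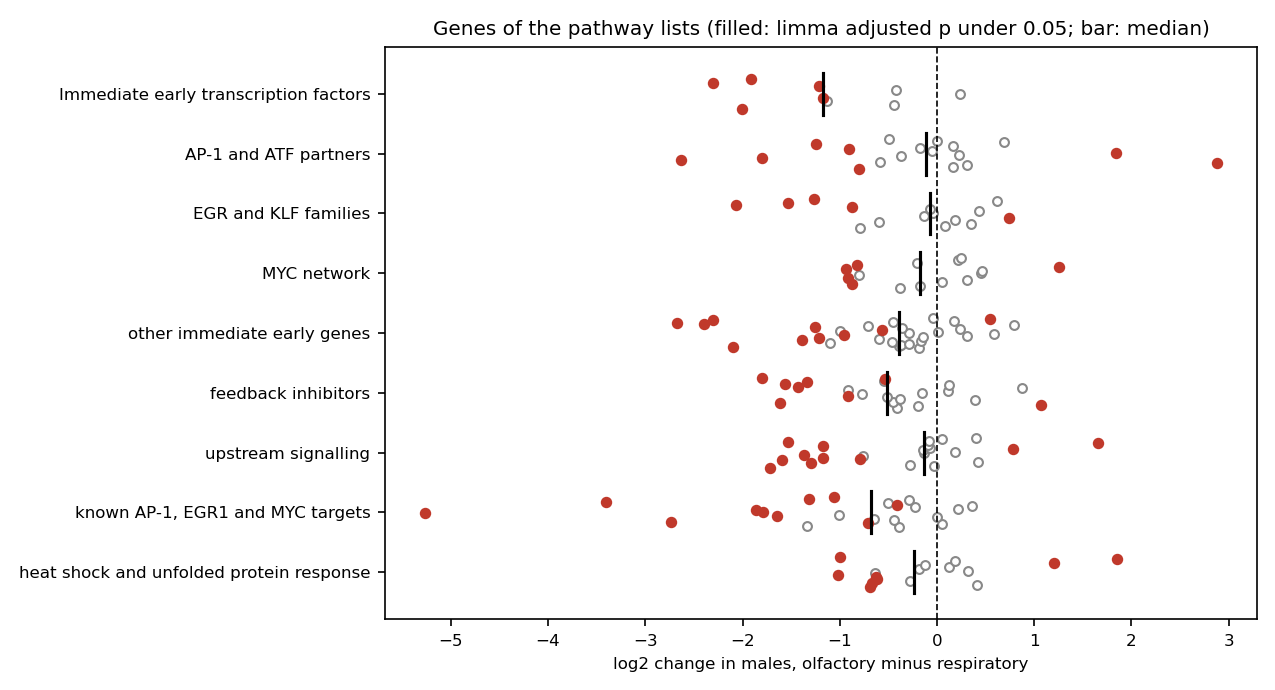
Change in males, olfactory minus respiratory (x axis, log2), of each gene of the pathway lists (rows), with filled points past limma's adjusted p of 0.05 and a bar at the list's median. The immediate early transcription factors have their median at -1.18 and the other lists between -0.68 and -0.07.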

How the data were processed

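RNA was put on 1 array per sample after extraction with Trizol and a Qiagen kit, per the labels' protocols. The values deposited by the authors are intensity on a linear scale, 1 per probe set. GCOS 1.0 is the tool in the submitters' processing notes, and the sources used here give neither its algorithm nor its scaling target. Leaving out 2% at each end, the mean was 500.1 to 500.3 on every array, so the deposited scaling was kept. Array medians ran from 134 to 192. The precision is limited by how many arrays there were.

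Of 31099 probe sets 57 controls were left out. By the platform annotation 20826 of the rest carried 1 symbol, 436 several and 9780 none used here, and symbols were updated through RefSeq's gene table. An array's background was the 95th percentile of its 27 bacterial controls (28.2 to 64.9). limma 3.58.1 in R 4.3.3 fitted 4 group means to log2(signal + 16) over all 20 arrays, with variances that follow intensity, and 2-sided p values were adjusted by Benjamini-Hochberg over 31042 probe sets. Relations across arrays used scipy 1.17.1 and numpy 2.4.6. The fitting steps were tested on simulated data.

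Samples that share sex and number in the labels are 1 animal, and this is where the pairing comes from. Over all probe sets, the deviations of an animal's olfactory and respiratory arrays correlated at -0.184 to 0.246, with a consensus of 0.039.

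All members are named, with the 3 largest changes of each pathway list among genes called in males and the 10 genes most like the members. The members, lists and tests were chosen with earlier results of these data known. Alternatives were the pseudocount, quantile normalization, a filter on dim probe sets, each array left out, variances without trend, animal, age, RNA integrity and the choice of probe set.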

Additional observations from a re-analysis of the deposited data

Results flagged for a closer look

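In 36 sets of 6 arrays (12 probe sets in the female respiratory, male olfactory and male respiratory groups) the gap of the highest or lowest array to its neighbour was set against the range of the group, on the scale log2(signal + 16). It passed Dixon's critical value for 6 samples once, for the Jun probe set of highest signal. The array of female respiratory 8 was lowest at a log2 value of 10.12, against 11.21 to 11.48 on the other 5 arrays of its group, with a ratio of 0.796. On the linear signal 4 sets passed: the same set of Jun (0.713), Junb in male olfactory arrays (0.712), and Egr1 and Atf3 in male respiratory arrays (0.685 and 0.761). Chance alone passes such a limit in about 1 of 20 sets. The same array stood apart on the second principal component of all probe sets, at -113.3, and its part in the value of Jun was not tested.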

How the results depend on the processing

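Precision rests on few arrays, 2 in the female olfactory group and 6 in each other group. The count of 5 genes called lower in males became 2 when the RNA integrity number was a covariate, where the SE of Junb was 0.51 and the change of Atf3 -1.14, against 0.32 and -1.79 over the same arrays without the covariate. Of all 31042 probe sets, 1062 were called lower in males with the covariate, against 4033 over those arrays without it. Leaving out 1 array at a time gave 4 to 6 in males. In females the 3 genes called lower became 1 to 3, with 1 (Klf4) without female olfactory 6. The count called higher in females was 0 and became 1, Ier2, without male respiratory 7 and without female respiratory 8 and male respiratory 7. With the animal as a fixed replicate block 6 genes were lower in males, with Fos added (-1.25, adjusted p 0.000626), and with a random replicate block for the animal 5 in males and 3 in females, so that the block changed no other call. Fosl1 was not called within males aged 11 weeks (-1.04, adjusted p 0.293). Relations with Fos that passed or failed at an unadjusted p under 0.05 after arrays were left out were those of Klf4 (-0.67 without male respiratory 2), Fosl1 (0.46 without male respiratory 2), Jun (0.79) and Myc (0.65 without female respiratory 8 and male respiratory 7). A further Jun probe set gave r 0.59 (permutation p 0.0455). No called change turned its sign under any setting tried, and between the sexes 0 genes were called under all of them.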
